A study of Homo sapiens with 41 samples.

Results

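Knockdown of the transcription factor ATF4 was examined in TGFbeta-treated LX-2 cells, by comparing 2 RNA libraries with a hairpin against ATF4 (shATF4) with 2 libraries with a control hairpin (shCtrl). These 4 libraries, chosen by their titles, were among 41 samples of the series, of which 32 were RNA libraries, 16 of them from LX-2. LX-2 is an immortalised human line of hepatic stellate cells, and TGFbeta is the main cytokine that turns stellate cells into matrix-producing myofibroblasts. Labelled DMSO were 2 further shCtrl and 2 further shATF4 libraries, which entered the same fit. Another 2 and 2 came from the AA_Dep condition, a label taken here to mean amino acid deprivation. All of these cells carried a hairpin. All libraries compared came from 1 line of this type, and the labels give no dose, no duration of treatment, no hairpin sequence and no statement of how many hairpins shATF4 stands for. Nothing in the labels says that replicates came from separate cultures, so p-values measure the spread between these samples, which may be technical. In bulk RNA, fewer cells of a kind and less RNA per cell cannot be told apart.

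ATF4 is a bZIP transcription factor whose translation increases when eIF2alpha is phosphorylated, the core step of the integrated stress response (ISR). With C/EBP-family partners it binds composite sites near genes for amino acid uptake and synthesis, tRNA charging and stress feedback. Myofibroblasts secrete collagen rich in glycine and proline, so that amino acid supply and matrix production are often studied together in stellate cells. TGFbeta acts through receptor kinases that phosphorylate SMAD2 and SMAD3, which raise matrix, contractile and feedback genes.

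Library totals ran from 17819803 to 18776430 counts in the 4 TGFbeta libraries. Levels below are CPM values, counts scaled to a common library size after TMM normalisation. They are not corrected for gene length and are compared only within a gene. A log2 change is shATF4 over shCtrl, so a negative value is a lower level with the ATF4 hairpin, and ± gives its standard error. A gene is said to have risen or fallen when its Benjamini-Hochberg adjusted p from edgeR's quasi-likelihood test was under 0.05. Markers of activated stellate cells summed to 19900 to 20000 CPM in shCtrl and 10900 to 11000 CPM in shATF4, and most of that sum was COL1A1. Of these 11 markers 6 fell, while VIM, TIMP1 and THY1 rose and 2 were not called. The hepatocyte list summed to 6.14 to 6.19 and 6.49 to 9.04 CPM with TTR at 0, and 8 of its 9 genes stayed under 1 CPM in every library. For macrophages the sums were 10.8 to 10.9 and 5.26 to 7.1 CPM with CD163 at 0, and for endothelial cells 24.2 to 26.2 and 18.2 to 19.7 CPM with CLEC4G at 0. Cholangiocyte markers, which include genes that stellate lines also express, summed to 90.5 to 92.9 and 87.5 to 93.3 CPM with CFTR at 0. Markers of HMLE, the other line of the series, summed to 2.18 to 3.07 and 2.06 to 2.91 CPM with KRT6A at 0.

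ATF4 mRNA stood at 287.3 and 294.7 CPM in the shCtrl TGFbeta libraries and at 137.5 and 139 CPM in the shATF4 TGFbeta libraries. Both shATF4 libraries were below both shCtrl libraries, as their labels have it, and ATF4 transcript remained detectable. The log2 change was -1.07 ± 0.07 (adjusted p = 2.3e-10), beside -0.92 in DMSO.

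Of 16560 genes tested, 2988 (18%) rose and 2897 (17.5%) fell, 35.5% in all, and the median log2 change over all tested genes was -0.006. A further limit of 1 on the size of the log2 change left 435 genes (2.63%) that rose and 519 (3.13%) that fell. The counts for gene lists given further on stand against the 18% and 17.5% of all genes, and no test compared one list with another. In 11426 genes, 69.0% of those tested, the 2 groups did not overlap. Among called genes the groups overlapped in only 4, so groups without overlap add little to a call. The fit held the 8 DMSO and TGFbeta libraries and had a biological coefficient of variation of 6.14%. Fitted with all 16 LX-2 libraries, one of which (a shCtrl library with thapsigargin) differed strongly from its replicate, the coefficient was 29.5% and 229 genes were called. Without that library it was 9.21% and 4044 genes were called. Leaving out shCtrl TGFbeta replicate 2 left 3745 calls.

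**Figure D1:**
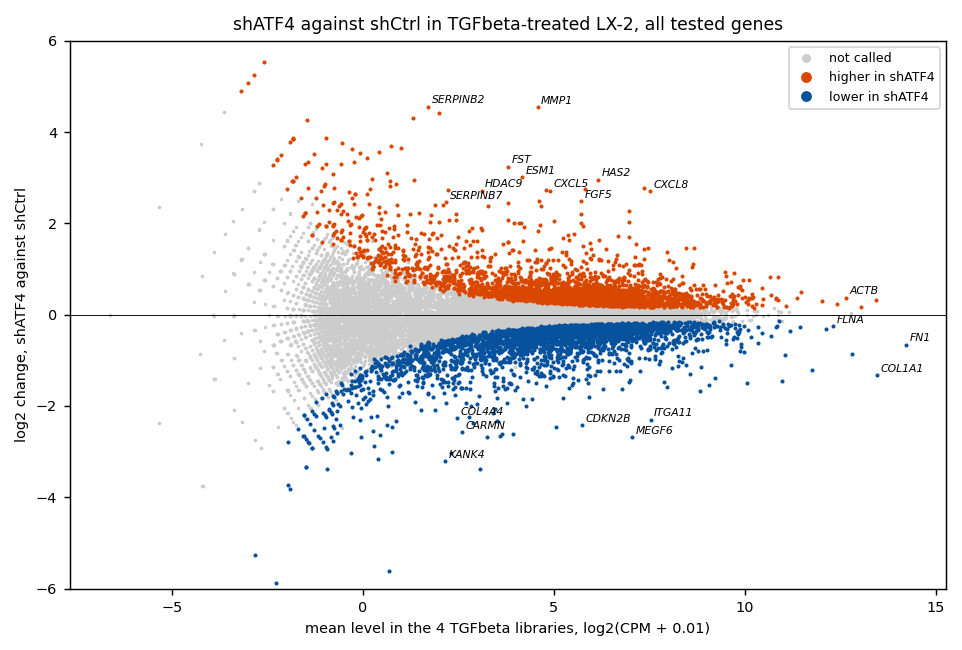
Each point is 1 of the 16560 tested genes, with the mean level in the 4 TGFbeta libraries on the x axis (log2 of CPM + 0.01) and the log2 change of shATF4 against shCtrl on the y axis (limited to 6 in each direction). Orange and blue points are the 2988 genes that rose and the 2897 that fell, grey points were not called, and a part of the genes with the largest changes or the most counts is labelled.

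Among targets of the ISR, most of the genes that moved were lower with the ATF4 hairpin. Of 25 tested, 14 fell and 3 rose, with a median log2 change of -0.54, and leaving out single TGFbeta libraries gave 13 to 16 calls. The fallen genes included DDIT4, an inhibitor of mTORC1 signalling, CHAC1, which degrades glutathione, and SLC7A11, the cystine importer. DDIT4 measured 22.95 and 29.68 CPM in shCtrl and 4.03 and 4.525 CPM in shATF4, a log2 change of -2.62 ± 0.16 (adjusted p = 6.7e-11). CHAC1 measured 9.853 and 12.8 CPM against 2.911 and 2.75 CPM, a log2 change of -2.00 ± 0.20. For both genes the shATF4 libraries lay far below the shCtrl libraries, with no overlap.

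Promoters of 4 genes are printed because they hold the composite element that ATF4 binds together with C/EBP proteins, searched as the letters TGATGNAAN on both strands (N is any base). Each sequence is 300 bases from RefSeq, build GRCh38.p14, 250 before the annotated start and 50 after it, read 5′ to 3′ on the gene's strand, with the match in capitals. A match read as GTTGCATCA lies on the opposite strand. ASNS makes asparagine from aspartate (chr7:97872359-97872658, minus strand), CHAC1 is named above (chr15:40953221-40953520, plus strand), CARS1 charges the tRNA for cysteine (chr11:3057374-3057673, minus strand), and ATF3 is a stress-induced bZIP factor (chr1:212565157-212565456, plus strand).
ASNS: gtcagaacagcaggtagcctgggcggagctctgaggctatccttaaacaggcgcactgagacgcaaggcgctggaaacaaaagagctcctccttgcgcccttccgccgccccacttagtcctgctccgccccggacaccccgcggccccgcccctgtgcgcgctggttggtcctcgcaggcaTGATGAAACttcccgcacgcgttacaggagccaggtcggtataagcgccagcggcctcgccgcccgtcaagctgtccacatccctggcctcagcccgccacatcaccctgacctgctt
CHAC1: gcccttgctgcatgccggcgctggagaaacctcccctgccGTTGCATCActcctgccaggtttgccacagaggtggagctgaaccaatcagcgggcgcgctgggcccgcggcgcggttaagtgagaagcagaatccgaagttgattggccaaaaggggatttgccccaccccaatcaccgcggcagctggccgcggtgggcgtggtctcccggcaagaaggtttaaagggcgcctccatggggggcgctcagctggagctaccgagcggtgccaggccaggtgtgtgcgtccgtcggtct
CARS1: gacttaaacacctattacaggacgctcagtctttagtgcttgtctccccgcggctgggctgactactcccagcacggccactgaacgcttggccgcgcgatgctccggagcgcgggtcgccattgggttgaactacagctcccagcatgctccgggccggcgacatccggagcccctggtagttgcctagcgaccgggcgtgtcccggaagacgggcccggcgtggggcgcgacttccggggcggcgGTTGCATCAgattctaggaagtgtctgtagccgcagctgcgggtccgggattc
ATF3: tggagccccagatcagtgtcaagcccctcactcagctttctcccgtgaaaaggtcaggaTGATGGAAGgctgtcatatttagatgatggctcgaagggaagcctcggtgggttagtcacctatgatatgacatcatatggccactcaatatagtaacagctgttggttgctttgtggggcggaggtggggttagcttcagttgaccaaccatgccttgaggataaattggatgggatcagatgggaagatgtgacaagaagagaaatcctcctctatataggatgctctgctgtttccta
The match began 68 bases before the start in ASNS, 210 in CHAC1, 3 in CARS1 and 191 in ATF3. The first 3 of these genes were lower with the hairpin and ATF3 was higher, at 4.956 and 4.863 CPM in shCtrl and 9.012 and 11 CPM in shATF4 (log2 change 1.03 ± 0.17). The letters were present in 3.67% of the promoters of all 27305 genes in the RefSeq table (the first listed for each gene) and in 1.71% of the 11672 tested genes with a promoter there. The share was 2.02% of genes that rose (exact 95% interval 1.49 to 2.67%) and 1.45% of genes that fell (0.993 to 2.04%). Among genes that rose by at least 1 on the log2 scale it was 4.23% (12 of 284, 2.2 to 7.26%) and among those that fell as much 1.58% (0.516 to 3.65%). Among ISR targets with a promoter, 4 of 9 that fell and 5 of all 19 tested had a match. Fallen genes of other lists were searched only where they had a promoter in the table. Of these, 1 of 6 serine, glycine and one-carbon genes had a match (exact 95% interval 0.421 to 64.1%). Among fibrillar collagens it was 0 of 5 (0 to 52.2%). Other named genes that fell and held one were AARS1 and MARS1, which charge the tRNAs for alanine and methionine, and MTHFD1L, a mitochondrial folate enzyme. KRT34, a keratin gene, held a match and rose by 2.37 on the log2 scale, the largest change among named genes with one. IARS1, TARS1, SLC3A2 and SLC7A1 held a match and were not called. A match describes these letters in this window and not a bound site.

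ASNS was low, at 2.242 and 2.012 CPM in shCtrl and 0.8956 and 0.8593 CPM in shATF4. Its log2 change of -1.27 ± 0.41 (adjusted p = 0.021) passed the threshold, with groups that did not overlap. Without any 1 of the 4 TGFbeta libraries the adjusted p lay between 0.066 and 0.1. SLC7A11 measured 26.31 and 26.72 CPM against 11.64 and 12.2 CPM (log2 change -1.15 ± 0.15). Other ISR genes did not go the same way. PPP1R15A, the phosphatase subunit that ends eIF2alpha phosphorylation, rose from 37.35 and 37.56 to 70.14 and 71.83 CPM (log2 change 0.92 ± 0.08, adjusted p = 1.2e-08), and the autophagy receptor SQSTM1 rose by 0.81 ± 0.07. TRIB3, a pseudokinase that restrains ATF4, measured 28.2 and 29.74 CPM in shCtrl and 30.84 and 31.79 CPM in shATF4, with an adjusted p of 0.4.

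**Figure D2:**
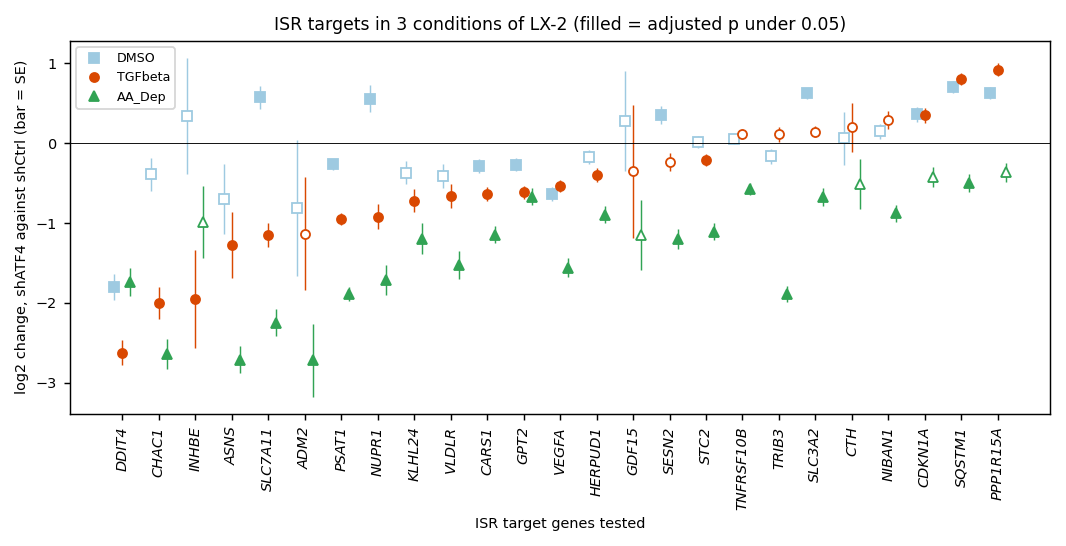
Log2 change of shATF4 against shCtrl (y axis) for the 25 tested ISR targets (x axis, ordered by the change in TGFbeta), in DMSO (blue squares), TGFbeta (orange circles) and AA_Dep (green triangles). Filled symbols have an adjusted p under 0.05 and bars are standard errors. In TGFbeta 14 targets lay below 0 with filled symbols, in AA_Dep 20 and in DMSO 5.

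Transcription factors of the same pathway and their partners split. Of 14 tested, 5 rose and 4 fell, and the fallen genes include ATF4 itself, the target of the hairpin. Besides ATF3, DDIT3 (CHOP, a pro-apoptotic ISR factor) rose from 4.425 and 4.696 to 9.236 and 9.566 CPM (log2 change 1.04 ± 0.16), and MAFF, a small MAF partner, rose by 1.17 ± 0.10. JDP2, a repressor of the AP-1 family, fell by 0.99 ± 0.15 on the log2 scale. ATF5, NFE2L1 and MAFG did not pass the test, with log2 changes of 0.06, -0.13 and 0.12. Of the 15 upstream genes for eIF2alpha kinases, phosphatase subunits and eIF2B, 3 rose and 1 fell, shares near and below the 18% and 17.5% of all genes. EIF2AK4, the kinase GCN2 that senses uncharged tRNA, rose by 0.53 ± 0.07, and EIF2S1, which encodes eIF2alpha, rose by 0.40 ± 0.06.

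Genes that make serine, glycine and folate-bound carbon units were more often lower than higher in shATF4. Of 14 tested, 9 fell and 2 rose, with a median of -0.48, and without single TGFbeta libraries 6 to 9 members were called. PSAT1, a transaminase of serine synthesis, measured 130.9 and 133.7 CPM in shCtrl and 66.44 and 70.4 CPM in shATF4, a log2 change of -0.95 ± 0.07 (adjusted p = 2.9e-09). PHGDH, the first enzyme of that pathway, measured 186 and 203.2 CPM against 119.1 and 117.3 CPM (-0.72 ± 0.07). All 4 shATF4 values of these genes were below all shCtrl values. ALDH1L2, a mitochondrial folate enzyme, had a log2 change of -1.14 ± 0.12 and SHMT2, the mitochondrial serine hydroxymethyltransferase, of -0.55 ± 0.07. MTHFD2, an ISR gene of the same pathway, differed less, at 235.2 and 236.6 against 216.3 and 203.2 CPM. Its log2 change was -0.17 ± 0.06 with an adjusted p of 0.046, and without any 1 TGFbeta library that p was 0.072 to 0.29. SHMT2 and MTHFD2 were named after their values were seen.

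Other amino acid genes changed in smaller numbers. Of 18 genes for asparagine, proline, glutamine, alanine and transsulfuration enzymes, 5 fell and none rose. These include ASNS and CHAC1, which were already counted among the ISR targets. The change of PYCR1, a proline enzyme, was small, between -0.297 and -0.199 on the log2 scale without single TGFbeta libraries. GPT2, the mitochondrial alanine transaminase, fell by 0.61 ± 0.08 on the log2 scale. CBS, the first transsulfuration enzyme, fell by 1.20 ± 0.31, and its adjusted p was 0.079 without shATF4 TGFbeta replicate 2. ALDH18A1, which opens proline synthesis, had a log2 change of 0.11 ± 0.07 and did not pass the test. Of 20 cytosolic aminoacyl-tRNA synthetases, 5 fell and 3 rose. CARS1 fell from 55.4 and 61.15 to 38.68 and 36.2 CPM (log2 change -0.64 ± 0.09), and AARS1, MARS1 and YARS1 changed by -0.54, -0.40 and -0.36. FARSB, a subunit of the phenylalanine synthetase, rose by 0.52 ± 0.08.

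Amino acid transporters split as well, with 6 of 20 lower and 2 higher. SLC7A5, the light chain of the leucine importer LAT1, measured 161.8 and 170 CPM in shCtrl and 79.77 and 72.29 CPM in shATF4, a log2 change of -1.13 ± 0.08 (adjusted p = 7.4e-10). SLC3A2, the heavy chain that SLC7A5 and SLC7A11 share, was not called, at 219.6 and 222 against 241.9 and 246.4 CPM. SLC6A6, the taurine transporter, fell from a mean of 101.7 CPM in shCtrl (SD 2.33, n = 2) to 50.71 CPM in shATF4 (SD 2.29, n = 2). SLC7A2, a cationic amino acid transporter, rose from 18.23 and 16.49 to 36.61 and 33 CPM.

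Nearly every fibrillar collagen gene was lower with the ATF4 hairpin. Of 10 tested, 9 fell and the remaining gene was not called, and the median over the 10 log2 changes was -1.36. COL1A1, the alpha1 chain of type I collagen, measured 16110 and 16010 CPM in shCtrl and 6417 and 6336 CPM in shATF4. The replicates differed by far less than the groups, and the log2 change was -1.33 ± 0.05 (adjusted p = 1.3e-14). COL1A2, which encodes its partner chain, measured 633.9 and 636.4 CPM against 284.9 and 287.1 CPM (-1.15 ± 0.06). COL3A1, the chain of type III collagen, measured 373.3 and 377.3 against 125 and 123.8 CPM (-1.59 ± 0.06). Chains of type V collagen, which limits fibril diameter, fell alongside, COL5A1 by 1.44 ± 0.06, COL5A2 by 1.39 ± 0.06 and COL5A3 by 2.00 ± 0.13. COL27A1 and COL11A1 fell by 1.08 and 1.39. COL11A2 had a log2 change of -0.65 and lost its call when 3 of the 4 TGFbeta libraries were left out in turn, its adjusted p being 0.033 to 0.31. COL2A1, the cartilage collagen, was at 1.18 and 1.174 against 1.175 and 1.318 CPM and did not pass the test.

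Basement membrane chains and other collagens also fell in part. Of 21 basement membrane collagens and laminins, 12 fell and 3 rose (median -0.51). COL4A1 measured 1565 and 1560 CPM in shCtrl and 542.4 and 564.8 CPM in shATF4 (adjusted p = 1.3e-13), COL4A4 changed by -2.27 ± 0.22 and the laminin chain LAMA5 by -1.08 ± 0.08. LAMC1 and LAMB1, chains of widespread laminins, had log2 changes of -0.07 and 0.01 and were not called. Of 12 other collagens, 6 fell and 1 rose. COL7A1, the anchoring fibril collagen, changed by -0.73, COL16A1 by -1.17 and COL6A3, of the beaded filaments, by -0.50. COL13A1, a transmembrane collagen, was the one that rose, from 1.888 and 1.733 to 6.045 and 5.614 CPM.

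Several enzymes that process collagen outside the cell were lower, while LOX and some that work inside the ER were not called. Of 31 collagen-modifying and collagen-processing genes, 13 fell and 3 rose (median -0.12). ADAMTS2, which removes the amino-terminal propeptide, fell from 68.55 and 64.84 to 23.29 and 22.51 CPM (log2 change -1.54 ± 0.09). BMP1, which removes the carboxy-terminal propeptide, changed by -1.01 ± 0.07, its enhancer PCOLCE by -1.03 ± 0.10 and the crosslinking oxidase LOXL1 by -1.08 ± 0.09. LOXL2, another crosslinking oxidase, named after its values were seen, fell from 1267 and 1295 to 733.3 and 714.6 CPM. LOX itself measured 699.5 and 687.8 CPM in shCtrl and 746.8 and 706.9 CPM in shATF4, and was not called (log2 change 0.07, adjusted p = 0.4). PLOD2, a lysyl hydroxylase, and P4HB, a subunit of the prolyl hydroxylase, were not called, with log2 changes of -0.12 and -0.01. COLGALT2, a collagen galactosyltransferase of the ER, had the largest change of the list, a rise at low levels. It measured 0.944 and 0.2236 CPM in shCtrl and 3.303 and 2.864 CPM in shATF4 (log2 change 2.41 ± 0.44).

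Matrix glycoproteins and proteoglycans were more often lower than higher, with 18 of 35 lower and 3 higher (median -0.64). SPARC, a collagen chaperone of the matrix, measured 4828 and 4859 CPM in shCtrl and 2090 and 2061 CPM in shATF4, a log2 change of -1.22 ± 0.05 (adjusted p = 1.3e-13). BGN (biglycan) fell by 1.30 ± 0.13 and MGP (matrix Gla protein) by 2.09 ± 0.29. FN1, fibronectin, fell from 24110 and 23210 to 15560 and 14380 CPM (-0.66 ± 0.06), and FBN1, fibrillin, named after its values were seen, by 0.79 ± 0.08. TGFBI, a TGFbeta-induced adhesion protein, fell from 9154 and 9262 to 5075 and 5018 CPM. Tenascin C (TNC) was not called, at 1170 and 1124 against 1086 and 1016 CPM. POSTN (periostin) changed by -0.41 ± 0.12, with an adjusted p of 0.029 to 0.16 when single TGFbeta libraries were left out.

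Matrix proteases and their inhibitors moved in both directions, 10 of 27 higher and 6 lower. MMP1, interstitial collagenase, stood at 2.242 and 1.677 CPM in shCtrl and at 45.45 and 45.71 CPM in shATF4. Its log2 change of 4.54 ± 0.14 (adjusted p = 1.7e-15) and that of SERPINB2 below were the largest rises among genes that reached 5 CPM in 1 group. ADAMTS1, a proteoglycanase, rose from 18.17 and 18.89 to 86.26 and 85.47 CPM (2.21 ± 0.09) and ADAMTS5 by 1.79 ± 0.28. MMP2, gelatinase A, named after its values were seen, went the other way, from 283.9 and 288.6 to 164.9 and 154.4 CPM, and ADAMTS7 fell by 1.24 ± 0.11. MMP14 and TIMP3 were not called, with log2 changes of 0.03 and -0.05. MMP3 had 2 counts over both shCtrl libraries and 23 over both shATF4 libraries, too few for a fold.

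**Figure D3:**
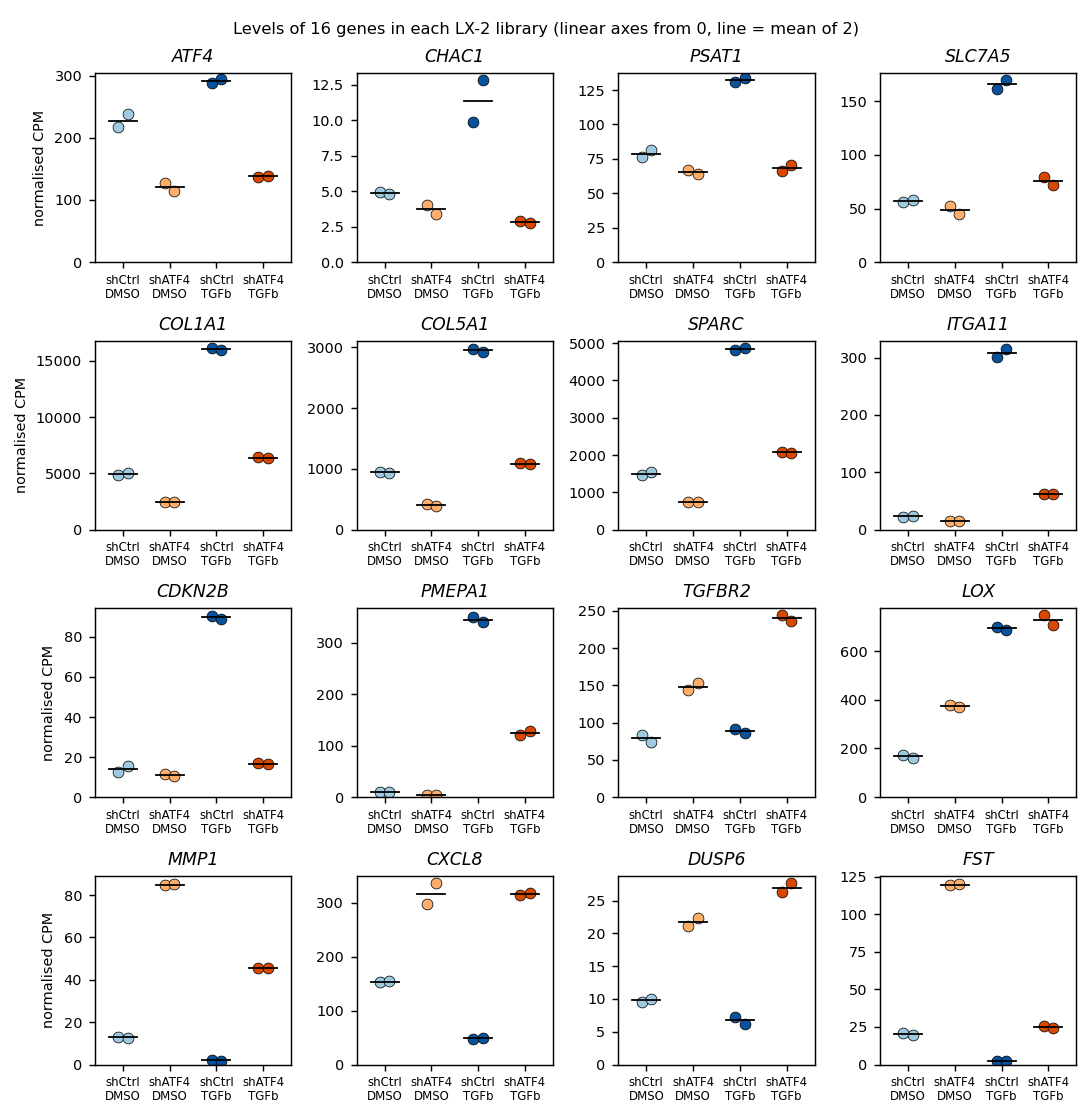
Normalised CPM (linear y axes from 0) of 16 genes in each of 8 LX-2 libraries, shCtrl and shATF4 in DMSO and in TGFbeta, with a line at the mean of each pair. ATF4, CHAC1, PSAT1, SLC7A5, the collagens, SPARC, ITGA11, CDKN2B and PMEPA1 were lower in shATF4 TGFbeta than in shCtrl TGFbeta, and TGFBR2, MMP1, CXCL8, DUSP6 and FST higher; for LOX the pair in TGFbeta was close.

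Of 24 TGFbeta ligands, receptors and SMADs, 5 rose and 6 fell (median -0.04), beside 18% and 17.5% of all genes. TGFBR2, the type II receptor, rose from 91.45 and 86.25 to 244.9 and 236.6 CPM (log2 change 1.44 ± 0.07, adjusted p = 4.7e-12), and the co-receptor TGFBR3 by 1.49 ± 0.24. TGFB1, the ligand, fell from 610.1 and 581.9 to 427.8 and 427 CPM (-0.48 ± 0.06), and SMAD3 fell from 231.8 and 232.6 to 162.6 and 160.1 CPM (-0.53 ± 0.06). For TGFBR2, TGFB1 and SMAD3 the 2 groups did not overlap. LRRC32, which holds latent TGFbeta at the cell surface, fell by 1.52 ± 0.29. SMAD4, SMAD5 and ITGAV were not called.

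SMAD3 targets and feedback inhibitors were mostly lower, 18 of 29, with 6 higher and a median of -0.29. CDKN2B (p15, a CDK inhibitor induced by TGFbeta) measured 90.38 and 89.22 CPM in shCtrl and 16.85 and 16.67 CPM in shATF4, a log2 change of -2.42 ± 0.10 (adjusted p = 2.1e-13). PMEPA1 and LDLRAD4, membrane proteins that restrain SMAD phosphorylation, fell by 1.47 ± 0.07 and 1.93 ± 0.17 on the log2 scale. SMAD6, an inhibitory SMAD, fell from 15.58 and 16.43 to 5.15 and 6.129 CPM. JUNB, an AP-1 subunit induced by TGFbeta, fell from 182.7 and 186.8 to 62.75 and 73.67 CPM. The ubiquitin ligase SMURF2, named after its values were seen, rose from 138.8 and 139.5 to 362.7 and 362 CPM. NOX4, an oxidase induced by TGFbeta and also named later, fell from 10.86 and 10.06 to 4.198 and 5.843 CPM. LTBP2, ID1 and SMURF1 did not pass the test.

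BMP, GDF and activin genes had 4 of 17 higher and 6 lower. FST (follistatin), a secreted trap for activin, rose from 2.596 and 2.683 to 25.52 and 24.46 CPM, a log2 change of 3.24 ± 0.13 (adjusted p = 1.3e-13). CHRD (chordin), a BMP antagonist, fell from 2.478 and 3.522 to 0.3359 and 0.401 CPM. GDF6, a BMP-family ligand, fell from 50.91 and 50.81 to 22.73 and 24.4 CPM (-1.11 ± 0.10), and MSTN (myostatin) rose by 1.28 ± 0.24. INHBB, GDF11 and BMP4 were not called.

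Contractile genes were more often lower than higher, but the actin and transgelin genes differed from each other. Of 24 smooth muscle contractile genes, 14 fell and 2 rose (median -0.26), and 9 to 12 were called without single TGFbeta libraries. ACTA2, alpha smooth muscle actin, measured 48.91 and 51.65 CPM in shCtrl and 30.9 and 29.44 CPM in shATF4 (log2 change -0.74 ± 0.09, adjusted p = 2.2e-06). The coactivators MYOCD and MRTFA fell by 0.76 ± 0.13 and 0.73 ± 0.07. TAGLN, transgelin, was not called, at 857.9 and 804.4 against 889.5 and 953.8 CPM, nor were CALD1 and ACTN1. Cytoplasmic actins rose slightly, ACTB from 5637 and 5566 to 7082 and 7311 CPM (0.36 ± 0.05) and ACTG1 by 0.23 ± 0.05, while the non-muscle myosin MYH9 and the actin crosslinker FLNA fell by 0.32 and 0.26.

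YAP and TEAD targets were higher in 12 of 22 genes and lower in 4 (median 0.31). ANKRD1, a muscle ankyrin repeat protein, rose from 34.51 and 36.78 to 99.86 and 121.1 CPM (log2 change 1.63 ± 0.09). NT5E (CD73, an ectonucleotidase) rose from 187.8 and 188.5 to 526.1 and 513.8 CPM (1.47 ± 0.06), and F3 (tissue factor) by 1.44 ± 0.08. AMOTL2, PTPN14 and MYOF, which belong to the same list, were not called. Within the CCN and IGF-binding protein families 5 of 10 rose and 2 fell: CCN2 (CTGF) measured 761.1 and 739.5 CPM against 1112 and 1138 CPM (0.58 ± 0.06), CCN1 changed by 0.70 and IGFBP5 by 0.94, and IGFBP7 by -0.71.

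EMT factors, integrins and the PDGF receptor completed the mesenchymal genes. Of 16 EMT factors and cadherins, 6 fell and 3 rose. SNAI1 (Snail) fell from 38.94 and 37.12 to 16.18 and 19.25 CPM (log2 change -1.10 ± 0.12) and CDH11, a fibroblast cadherin, by 0.69 ± 0.07, whereas VIM (vimentin) rose from 1343 and 1387 to 2357 and 2477 CPM. SNAI2, TWIST2 and CDH2 were not called. ITGA11, the alpha subunit of a fibroblast collagen receptor, measured 301.2 and 314.6 CPM in shCtrl and 62.41 and 62.55 CPM in shATF4. Its log2 change of -2.30 ± 0.07 (adjusted p = 2.1e-15) was the largest fall among 17 integrins, of which 6 fell and 4 rose. ITGA6 and ITGA2, alpha subunits of laminin and collagen receptors, rose by 1.17 and 0.76. PDGFRB, the mitogen receptor of stellate cells, fell from 165.3 and 166.4 to 56.37 and 50.52 CPM (-1.63 ± 0.08).

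Inflammatory cytokine and chemokine genes were more often higher than lower with the ATF4 hairpin. Of 26 tested, 14 rose and 6 fell, with a median log2 change of 1.24, which did not move when 1 member without counts in shCtrl was set at its lower bound. CXCL8 (interleukin 8), a neutrophil chemoattractant, measured 48.32 and 48.8 CPM in shCtrl and 315.3 and 317.8 CPM in shATF4, a log2 change of 2.70 ± 0.07 (adjusted p = 3.6e-16). PTX3, a soluble pattern recognition receptor, measured 43.19 and 41.14 against 277 and 299.3 CPM (2.77 ± 0.07). CXCL5 rose from 8.201 and 7.602 to 51.39 and 52.24 CPM, with no overlap in any of these genes. CXCL1 and CXCL6, ligands of the same receptors, rose by 2.03 ± 0.08 and 2.04 ± 0.11. CCL2, the monocyte chemoattractant, fell from 110.8 and 115 to 71.37 and 72.12 CPM (-0.65 ± 0.07), and IL11, a fibrogenic cytokine, from 161.9 and 163.7 to 127.4 and 133.1 CPM. These last 4 genes were named after their values were seen. CSF1, CCL26 and TSLP did not pass the test. The lowest log2 change in the list was -2.26, below those of CCL2 and IL11. CCL20 had no counts in shCtrl and 11 in shATF4, at least 3.62-fold higher against a floor of 3 counts over the group.

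The CXCL8 promoter is printed because it holds an AP-1 element, searched as TGANTCA on both strands, and because genes with this element were frequent among the large rises (chr4:73740319-73740618, plus strand, RefSeq, GRCh38.p14, match in capitals).
CXCL8: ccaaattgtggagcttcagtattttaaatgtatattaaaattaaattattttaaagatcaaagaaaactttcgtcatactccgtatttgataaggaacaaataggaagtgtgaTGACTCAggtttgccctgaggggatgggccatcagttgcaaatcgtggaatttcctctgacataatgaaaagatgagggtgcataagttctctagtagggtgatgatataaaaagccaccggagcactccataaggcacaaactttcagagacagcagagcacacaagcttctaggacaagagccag
The match began 137 bases before the start. In all, 7.76% of the 27305 genes in the table and 4.8% of the promoters of tested genes held these letters. The share was 6.35% of genes that rose (exact 95% interval 5.39 to 7.42%) and 3.99% of genes that fell (3.21 to 4.89%). Among genes that rose by at least 1 on the log2 scale it was 12.7% (36 of 284, 9.04 to 17.1%) and among those that fell as much 6.33% (3.91 to 9.61%). Among named genes, promoters of FST, HDAC9, SERPINB2, TNFSF15, F3, ANKRD1, FAS, MSTN, DDIT3, OSGIN1 and EIF2AK4, all higher, held a match. So did those of CD14, IL11, ME1, MFAP2, POSTN and TFE3, all lower, and of genes that were not called. The related cAMP response element, searched as TGACGTCA, was in 1.98% of all promoters, 3.24% of tested genes, 3.13% of genes that rose and 3.08% of genes that fell. TGANTCA and TGACGTCA cannot match the same bases, and the interval of each share covers counting error only.

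Genes for AP-1 and EGR factors were higher in 10 of 18 cases and lower in 2 (median 0.30). FOSL1 (FRA-1), an AP-1 subunit, rose from 74.1 and 71.27 to 209.5 and 213.6 CPM (log2 change 1.54 ± 0.07, adjusted p = 2.9e-13), FOS by 1.53 ± 0.35 and KLF4 by 1.27 ± 0.15. EGR2 and the subunit JUNB fell, EGR2 from 20.06 and 19.4 to 6.773 and 5.957 CPM. MYC and FOSL2 were not called. Of 18 DUSP and Sprouty genes, which encode feedback inhibitors of ERK signalling, 15 rose and none fell (median 0.73, 12 to 14 called without single TGFbeta libraries). DUSP6, an ERK phosphatase, measured 7.316 and 6.149 CPM in shCtrl and 26.25 and 27.73 CPM in shATF4 (2.00 ± 0.13). SPRY4, SPRY2, DUSP5 and PHLDA1 rose by 1.62, 1.42, 1.13 and 1.49.

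Among growth factors and receptors 13 of 25 rose and 6 fell (median 0.49). FGF5, a fibroblast growth factor, rose from 16.64 and 15.26 to 92.02 and 86.61 CPM (log2 change 2.49 ± 0.10), and TGFA, an EGF receptor ligand, by 1.80 ± 0.37. EGFR and PDGFD were not called. AREG and FGF7 had 2 and 3 counts over the shCtrl libraries and 26 and 44 over the shATF4 libraries, so no fold is given. Of 25 WNT and Hedgehog genes, 8 rose and 6 fell. DKK1, a secreted WNT antagonist, rose from 23.24 and 18.61 to 82.96 and 84.44 CPM (2.00 ± 0.09), and the receptor ROR2 and the ligand WNT9A fell by 0.87 and 1.61. NF-kB subunits NFKB1, NFKB2 and RELA were not called, and of 15 genes in that list 4 rose and 3 fell, among them BIRC3 (1.16 ± 0.10), NFKBIZ (0.81 ± 0.09), ICAM1 (-0.99 ± 0.09) and BCL3 (-1.25 ± 0.11).

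Interferon-stimulated genes were mostly lower or not called, with 11 of 25 lower, 3 higher and a median of -0.33. Without single TGFbeta libraries 8 to 13 were called. XAF1 fell from 11.68 and 9.335 to 3.47 and 3.265 CPM (log2 change -1.64 ± 0.21), and OAS3, a sensor of double-stranded RNA, from 82.3 and 80.16 to 36.33 and 34.71 CPM (-1.19 ± 0.11). MX2, an antiviral GTPase, fell by 1.21 ± 0.23 and OAS1 by 1.32 ± 0.32, the latter with an adjusted p of 0.055 without shATF4 TGFbeta replicate 2. OASL rose from 2.478 and 3.41 to 6.437 and 7.561 CPM.

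Genes of the ER split in direction, and those of early secretory transport were more often higher than lower. Of 28 ER chaperones, folding enzymes and ERAD genes, 8 rose and 8 fell (median 0.00). HYOU1, an ER chaperone, fell from 294.8 and 290.2 to 201 and 202.6 CPM (log2 change -0.54 ± 0.06), and DNAJB9, a co-chaperone induced by IRE1 signalling, rose from 17.11 and 17.38 to 39.52 and 36.32 CPM (1.14 ± 0.11). ERN1, which encodes IRE1alpha, rose by 0.56 ± 0.11, and HSP90B1 and PDIA6 were not called. Of 28 translocation and COPII transport genes, 14 rose and 2 fell (median 0.20). SSR3, a subunit of the translocon-associated complex, rose from 598 and 566.3 to 1077 and 1119 CPM (0.92 ± 0.06), and the retrieval receptor KDELR3 by 0.74 ± 0.07.

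Glycolytic and hypoxia genes were lower in 21 of 28 cases and higher in 2, with a median of -0.53. NDRG1, a hypoxia-induced gene, fell from 83.89 and 92.23 to 35.6 and 33.91 CPM (log2 change -1.34 ± 0.09). SLC2A1, the glucose transporter GLUT1, fell from 236 and 244 to 122.9 and 121.6 CPM (-0.97 ± 0.07), PFKFB3, which makes an activator of phosphofructokinase, by 0.99 ± 0.07 and the kinase PDK1 by 0.82 ± 0.11. HK2 (hexokinase 2) was not called. Of 27 cholesterol and fatty acid genes 7 rose and 4 fell, with HMGCS1 and MSMO1 of the sterol pathway higher by 0.57 ± 0.06 and 0.63 ± 0.07 and FASN and ACLY not called. Of 18 NRF2 targets 5 fell and 3 rose: HMOX1 (heme oxygenase 1) changed by -0.87 ± 0.10, the ferritin chain FTL by 0.64 ± 0.06, and TXNRD1 was not called.

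Growth, clearance and translation genes gave mixed counts. Of 30 cell cycle and DNA replication genes 7 rose and 9 fell. CCND1 (cyclin D1) rose from 532.5 and 503.9 to 940.8 and 915.1 CPM (log2 change 0.84 ± 0.06) and RRM2, a subunit of ribonucleotide reductase, by 0.89 ± 0.06, and TOP2A, MCM7 and CCNB1 were not called. Of 20 CDK inhibitors and p53 targets 6 rose and 6 fell, with CDKN2A (p16 and p14ARF) lower by 0.94 ± 0.09 and FAS and MDM2 higher by 1.49 ± 0.20 and 0.94 ± 0.12. Of 25 autophagy and lysosome genes 10 rose and 7 fell: TFE3, a lysosomal transcription factor, fell from 113.6 and 115.5 to 64.93 and 62.9 CPM and ULK1, the initiating kinase, by 0.67 ± 0.07. Of 30 ribosomal protein genes 6 rose and 4 fell with log2 changes between -0.47 and 0.37. Of 13 mitochondrially encoded genes 9 rose and none fell (median 0.28). MT-ATP6 and MT-CO1 lost their call without shCtrl replicate 1 (adjusted p = 0.097 and 0.26) and without shATF4 replicate 1 (0.059 and 0.19) of the TGFbeta libraries, and MT-ND1 and MT-ND3 without shCtrl TGFbeta replicate 1 (0.058 and 0.081). MT-ND2, a subunit of complex I, changed most among them, from 1025 and 1216 to 1779 and 1566 CPM (0.58 ± 0.07).

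Stellate identity and quiescence genes, most of them low, included 6 of 15 that rose and 3 that fell (median 0.35). NGFR, the low-affinity neurotrophin receptor, rose from 2.537 and 3.578 to 11.92 and 11.06 CPM (log2 change 1.90 ± 0.17), and PCDH7, a protocadherin, by 1.24 ± 0.14. GATA4, a transcription factor linked to stellate quiescence, was not called, at 27.85 and 31.97 against 27.76 and 25.49 CPM.

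**Figure D4:**
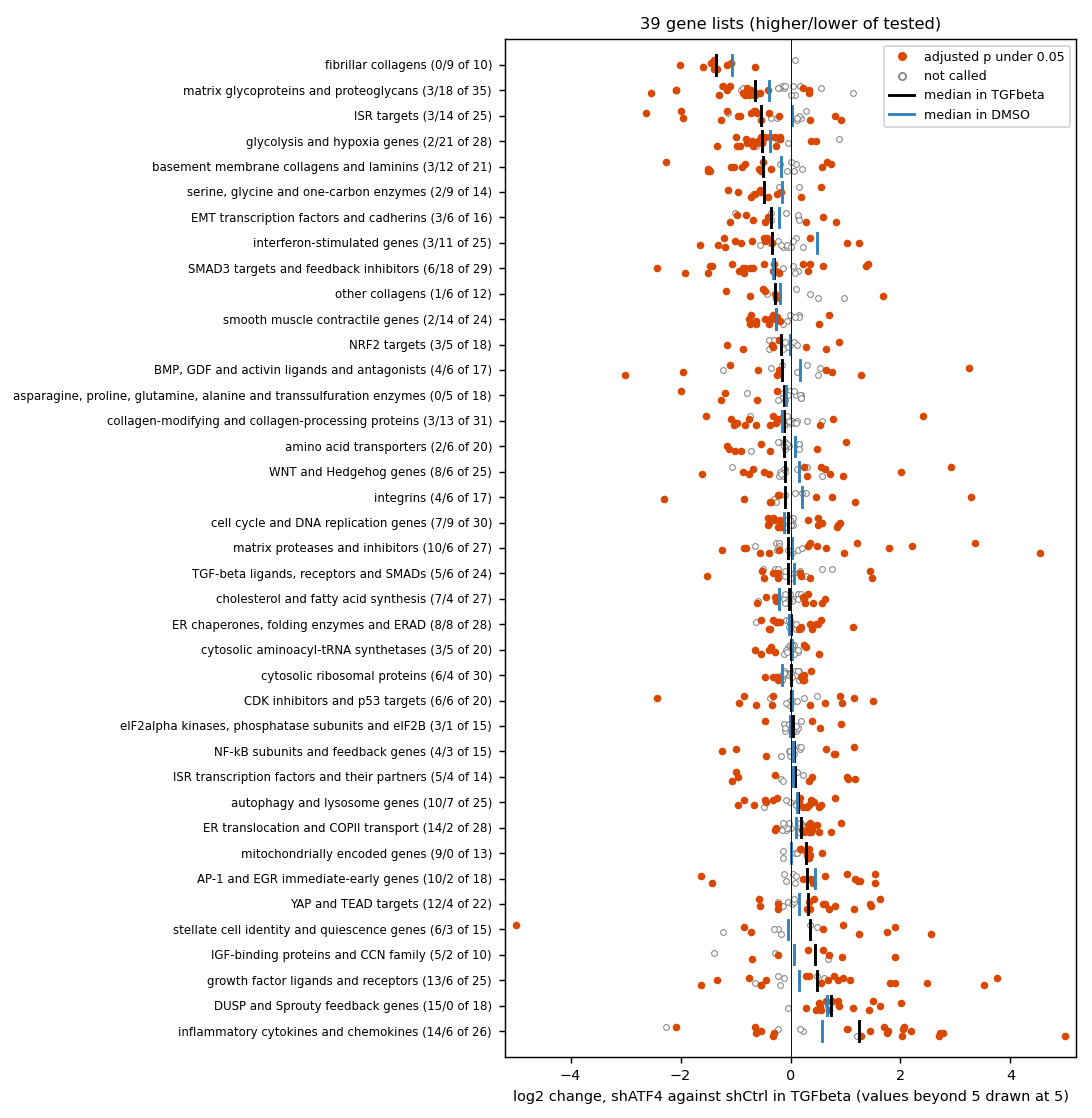
Log2 change of shATF4 against shCtrl in TGFbeta (x axis, values beyond 5 drawn at 5, among them the fitted value of CCL20) for every tested member of 39 gene lists (y axis, with genes higher and lower of those tested). Orange points passed the test, white points did not, and black and blue ticks are the list medians in TGFbeta and in DMSO. Fibrillar collagens lie lowest by their median (-1.36) and inflammatory cytokines and chemokines highest (1.24).

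The largest single changes brought in genes outside these lists. KCNE4, a potassium channel subunit, fell from 15.34 and 15.26 to 1.399 and 1.547 CPM, a log2 change of -3.37 ± 0.25 (adjusted p = 1.3e-09). MEGF6, a secreted protein with EGF repeats, fell from 227.9 and 226.7 to 36.44 and 34.08 CPM (-2.69 ± 0.07). KIF26B, an atypical kinesin, fell from 17.35 and 15.65 to 2.183 and 2.979 CPM, and FOXS1, a forkhead factor, from 21.36 and 21.63 to 3.415 and 3.552 CPM. The scaffold KANK4, the homeobox gene PKNOX2, the collagen regulator ZNF469, the corepressor HR, PPFIA4 and the long noncoding RNAs CARMN and MIAT also fell by more than 2 on the log2 scale. At the other end, SERPINB2 (plasminogen activator inhibitor 2) rose from 0.295 and 0.2236 to 5.262 and 7.218 CPM, a log2 change of 4.56 ± 0.35. HAS2 (hyaluronan synthase 2) rose from 16.76 and 16.21 to 127.3 and 126.9 CPM (2.95 ± 0.12), HMGA2, an architectural chromatin protein, from 7.257 and 7.155 to 48.98 and 47.37 CPM (2.74 ± 0.11), and ESM1, an endothelial proteoglycan gene, from 3.54 and 4.36 to 32.63 and 31.05 CPM. TMEM200A, NFIB, HDAC9, TNFSF15 and SERPINB7 completed the 15 largest rises, with log2 changes of 2.76, 2.74, 2.71, 2.49 and 2.46.

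The same hairpins without TGFbeta gave fewer calls. In DMSO 1963 genes (11.9%) rose and 2020 (12.2%) fell, 24.1% in all. The DMSO and TGFbeta comparisons share no library. Of genes that rose in TGFbeta 1455 also rose in DMSO, which is 48.7% of the TGFbeta calls and 74.1% of the DMSO calls, and 21 had fallen there. For genes that fell the shared number was 1430, 49.4% and 70.8%, with 19 opposite. The difference of the 2 effects, tested as an interaction, was called in 583 genes (3.52%), of which 316 (1.91%) had a higher value in TGFbeta and 267 (1.61%) a lower one. That count ran from 246 to 1366 when single libraries of the 8 were left out, the lowest without shCtrl TGFbeta replicate 2 and the highest without shCtrl DMSO replicate 1. It was 184 with 15 LX-2 libraries and 0 with 16, where 353 genes had an unadjusted p under 0.05.

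TGFbeta against DMSO changed 5912 genes (35.7%) in shCtrl and 6879 (41.5%) in shATF4, comparisons that share libraries with each other and with the knockdown effects. COL1A1 changed by -1.02 in DMSO and -1.33 in TGFbeta, a difference of -0.31 (adjusted p = 0.0069), and in the whole fibrillar list 2 of 10 differences were called. ISR targets had a median of 0.02 in DMSO, with 7 higher and 5 lower, against -0.54 in TGFbeta, and 6 of 25 differences were called, all lower in TGFbeta. CHAC1 measured 4.855 and 3.709 CPM (means of 2) in DMSO, and its 2 effects differed by -1.61 (adjusted p = 0.002). SLC7A11 rose in DMSO by 0.57 and fell in TGFbeta by 1.15, a difference of -1.73 (adjusted p = 1.9e-05), and SLC7A5 had a difference of -0.91 (adjusted p = 4.6e-05). For SLC7A5 the level in shCtrl rose with TGFbeta by 1.55 on the log2 scale and in shATF4 by 0.65, responses that share these libraries. ITGA11 (-1.64, adjusted p = 1.9e-08), CDKN2B (-2.04, 6.0e-08) and KIF26B (-2.59, 1.5e-04) also had lower values in TGFbeta, and KIF26B was not called in DMSO. LOX measured 166.7 CPM in shCtrl DMSO and 374.4 CPM in shATF4 DMSO (means of 2), a rise of 1.17 that TGFbeta did not show, with a difference of -1.10 (adjusted p = 5.8e-08). LRRC32, WNT9A and EGR2 had differences of -2.19, -2.09 and -2.06, and their values in DMSO (0.68, 0.48 and 0.43) did not pass the test. They rest on few counts over the shCtrl and shATF4 DMSO libraries, 43 and 66 for LRRC32, 73 and 97 for WNT9A and 20 and 26 for EGR2.

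Differences in the other direction included secreted proteins. CXCL8 and PTX3 rose by 1.05 and 1.11 in DMSO and had differences of 1.66 each (adjusted p = 1.4e-09 for both), and MMP1 rose by 2.73 in DMSO with a difference of 1.81 (3.2e-06). CXCL8 had a mean of 317.3 CPM in shATF4 DMSO, close to its level in shATF4 TGFbeta, while in shCtrl its mean was 153.6 CPM in DMSO and fell with TGFbeta by 1.66 on the log2 scale. TNFRSF11B (osteoprotegerin, a decoy receptor) fell in DMSO by 0.68 and rose in TGFbeta by 2.06, a difference of 2.74 (adjusted p = 3.8e-08). SERPINB2, POSTN and KRT34 had differences of 3.27, 2.26 and 2.01. POSTN was lower with shATF4 in both conditions, and less so in TGFbeta. Its counts over the shCtrl and shATF4 libraries were 81 and 12 in DMSO and 966 and 740 in TGFbeta. In the cytokine list 9 of 26 differences were higher in TGFbeta and 2 lower, and in the list of interferon-stimulated genes 11 of 25 were lower and none higher. Of those 25 genes 13 rose in DMSO and 2 fell.

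**Figure D5:**
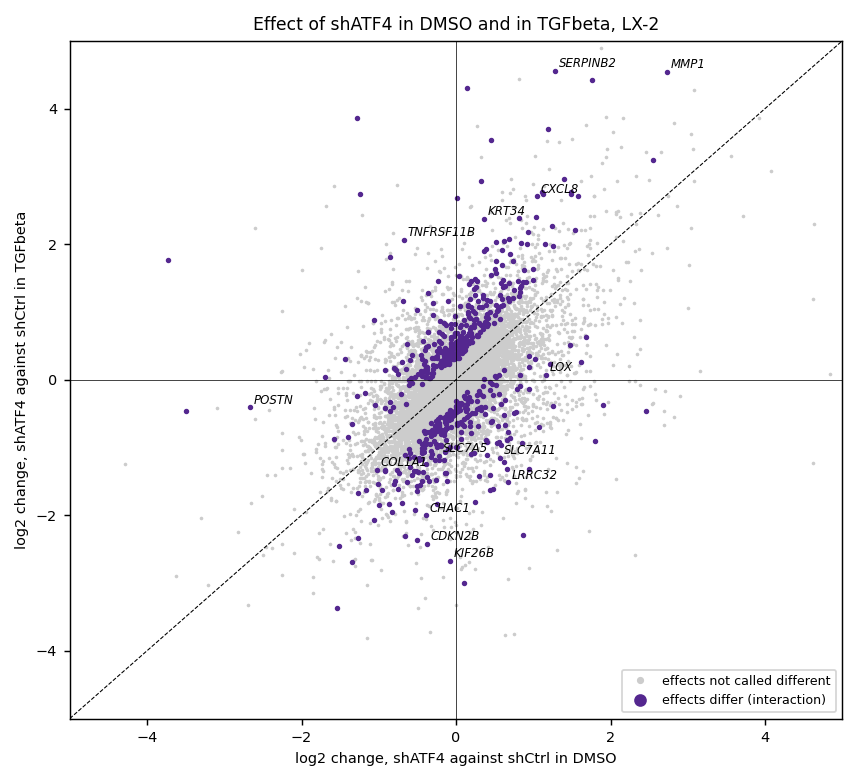
Log2 change of shATF4 against shCtrl in DMSO (x axis) and in TGFbeta (y axis) for tested genes within 5 in each direction, with a dashed line where both are equal. Purple points are genes whose 2 effects differed in the interaction test (583 of 16560), and a part of the genes discussed is labelled.

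Values under AA_Dep, from a fit of the 8 TGFbeta and AA_Dep libraries (16980 genes, coefficient of variation 10.2%), stand beside these. There 417 genes (2.46%) rose and 578 (3.4%) fell, 5.86% in all. The shCtrl AA_Dep replicates differed more than the other 5 pairs compared, with a chi-square per degree of freedom of 31.3. In the other pairs it was 8.22 (shCtrl DMSO), 3.76 (shATF4 DMSO), 3.39 (shATF4 AA_Dep), 2.77 (shCtrl TGFbeta) and 3.08 (shATF4 TGFbeta). The difference between the 2 effects was called in 2021 genes (11.9%), 1174 (6.91%) higher in TGFbeta and 847 (4.99%) lower, and the count ran from 535 without shATF4 TGFbeta replicate 1 to 7123 without shCtrl AA_Dep replicate 1. ATF4 measured 759 and 593.8 CPM in shCtrl and 221.4 and 216.9 CPM in shATF4 under AA_Dep. Of 25 ISR targets 20 fell there and none rose, with a median of -1.15, and 14 of 25 differences were higher in TGFbeta. TRIB3 fell from 213.6 and 183.9 to 54.2 and 53.32 CPM under AA_Dep and was not called in TGFbeta, a difference of 2.01 (adjusted p = 3.4e-05), and for PSAT1 the difference was 0.95 (adjusted p = 8.9e-04).

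Of 10 fibrillar collagens 2 rose under AA_Dep and none fell, and 8 of 10 differences were lower in TGFbeta. COL1A1 measured 1023 and 931.5 CPM in shCtrl AA_Dep and 997.7 and 1022 CPM in shATF4 AA_Dep, groups that overlap, with a difference of -1.37 from the effect in TGFbeta (adjusted p = 1.9e-05). COL3A1 rose from 9.54 and 10.54 to 27.75 and 26.63 CPM there (difference -3.02, adjusted p = 1.2e-06), and COL1A2, from 0.5734 and 0.7209 to 2.718 and 3.316 CPM (difference -3.36, adjusted p = 2.0e-05). MMP1 was not called under AA_Dep, at 283.1 and 351.6 against 256.7 and 234.8 CPM, a difference of 4.92 from TGFbeta (adjusted p = 1.2e-06). SERPINB2 fell there, with a difference of 6.16. Interferon-stimulated genes rose in 16 of 25 cases under AA_Dep and none fell, beside 3 and 11 in TGFbeta. Within shATF4 AA_Dep their levels spread widely, OAS1 at 15.79 and 45.36 CPM, IFI44L at 5.384 and 19.29 CPM and MX2 at 10.19 and 31.79 CPM. Their differences were -4.51, -4.06 and -3.94 (adjusted p = 0.0065, 0.019 and 0.011).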

How the data were processed

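RNA-seq was measured in 16 LX-2 libraries, with kits given as Qiagen RNeasy and SMARTer mRNA-Seq per the labels' protocols. The deposited files hold raw counts per Ensembl gene for 58735 genes, per the file headers, of which 58207 carried a symbol. Cutadapt, Bowtie2, STAR, HOMER, featureCounts, DESeq, hg19 and hg38 are named in the submitters' processing notes, without versions or roles, and the strand setting is not given in the sources used here. In addition 452 blank lines per file were dropped. Near-identical gene copies, overlapping genes and antisense partners may share reads.

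From these counts, edgeR 4.0.16 in R 4.3.3 gave TMM-scaled CPM and quasi-likelihood tests with Benjamini-Hochberg adjustment over all genes left by filterByExpr, threshold 0.05. The fit held the 8 DMSO and TGFbeta libraries, and a second fit the 8 TGFbeta and AA_Dep libraries. Totals ran from 16567857 to 18776430 counts in the first. The standard error is the log2 change divided by the root of the F statistic. Simulated data held 16560 genes, of which 67, 67 and 66 changed by 0.5, 1 and 2 on the log2 scale in shATF4 TGFbeta. Apart from these changes every gene had the same mean share in all libraries. The first comparison recovered 52.3%, 81.2% and 93.9% of these changes, and 3.27% of calls were unchanged genes. In the real data that comparison called 35.5% of genes, so these rates describe the simulated setting only. DESeq2 1.42.0 served as an alternative, besides other scaling, filters, library sets, a replicate block, a limit on size and leaving out each library. Same-numbered replicates did not deviate together (r from -0.0599 to 0.0391).

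Members, gene lists and tests were chosen with earlier results of these data known. Of 899 genes in 45 lists, 898 matched a symbol. Named were ATF4, the 15 largest rises and falls among genes reaching 5 CPM with groups that did not overlap, up to 5 called and 3 other members of each list (all of lists up to 12), the largest differences between conditions, the 5 called genes with the most counts in each direction, and those marked as chosen after their values were seen. Some genes that this rule names are not reported here. Promoters came from a RefSeq table of 35116 entries, matched by symbol. The 16 HMLE files were not used, and chromatin samples were not analysed here.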

Additional observations from a re-analysis of the deposited data

Results flagged for a closer look

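The effect of the ATF4 hairpin differed between TGFbeta and DMSO in 583 genes by edgeR's interaction test, and between TGFbeta and AA_Dep in 2021 genes. Each value below is the log2 effect in TGFbeta minus that in the other condition. Against DMSO, the lower values were those of KIF26B (-2.59), LRRC32 (-2.19), WNT9A (-2.09), EGR2 (-2.065), CDKN2B (-2.04), SLC7A11 (-1.73), ITGA11 (-1.64), CHAC1 (-1.61), LOX (-1.10), SLC7A5 (-0.905) and COL1A1 (-0.31). The higher values were those of SERPINB2 (3.27), TNFRSF11B (2.74), POSTN (2.26), KRT34 (2.01), MMP1 (1.81), CXCL8 (1.66) and PTX3 (1.66). Against AA_Dep, they were 6.16 for SERPINB2, 4.92 for MMP1, 2.01 for TRIB3, 0.95 for PSAT1, -1.37 for COL1A1, -3.02 for COL3A1, -3.36 for COL1A2, -3.94 for MX2, -4.06 for IFI44L and -4.51 for OAS1. The shCtrl AA_Dep pair had a chi-square per degree of freedom of 31.3 and the shCtrl DMSO pair of 8.22. The part of that spread in these values was not tested.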

How the results depend on the processing

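None of the 242 called named genes reversed its direction under the alternatives run, while 31 of the 120 that were not called changed sign under at least 1 of them. With all 16 LX-2 libraries, called genes numbered 229 for the knockdown in TGFbeta (115 higher, 114 lower), 43 in DMSO, 0 for the difference TGFbeta minus DMSO (353 at an unadjusted p under 0.05; DESeq2 on 8 libraries gave 545), 48 for TGFbeta minus AA_Dep, and 560 and 430 for TGFbeta against DMSO in shCtrl and shATF4. With 15 libraries the counts were 2160 in DMSO and 184 for TGFbeta minus DMSO. With a log2 change of at least 1 they were 954, 470, 136, 796, 1215 and 1175, in the order knockdown in TGFbeta, in DMSO, TGFbeta minus DMSO, TGFbeta minus AA_Dep, and TGFbeta against DMSO in shCtrl and shATF4. Without a count filter TGFbeta minus AA_Dep gave 3051. Leaving out single libraries gave 3745 to 6862 for the knockdown in TGFbeta, 1975 to 4949 in DMSO (lowest without shATF4 DMSO replicate 2), 246 to 1366 for TGFbeta minus DMSO and 535 to 7123 for TGFbeta minus AA_Dep. The cause of these shifts was not tested, apart from the size limit, which removes genes by construction. A replicate block gave 5846 calls in TGFbeta (2962 higher, 2884 lower), 599 for TGFbeta minus DMSO and 1692 for TGFbeta minus AA_Dep; 2 of 362 named genes lost and 3 gained their call, and the numbers are not known to pair samples. Of the 242 called ones 182 lost their call with all 16 libraries, 27 with 15, and 18 to 26 without single TGFbeta libraries. Among genes changed by at least 1, the composite element was in 4.23% of the higher and 1.58% of the lower ones, the cAMP response element in 1.76% of the higher and 2.22% of the lower, and the AP-1 element in 12.7% and 6.33%. Depth limits genes of few counts, for which folds are bounds or not given.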
